A study of Mus musculus with 6 samples.

Results

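The glycolysis and hypoxia response genes are a list of 35 mouse genes, taken by symbol. The list was drawn up with earlier results of these data known. It holds 17 glycolytic enzymes and lactate dehydrogenase subunits, and 7 genes around pyruvate dehydrogenase and fructose 2,6-bisphosphate. The others are 8 targets of hypoxia-inducible factor (HIF), and Hif1a, Egln1 and Egln3 from the oxygen-sensing circuit itself. All 35 were matched among the 55450 gene identifiers of the files through their GENCODE M21 symbols. Poly(A) RNA had been sequenced from 3 Hoxd12 knockout libraries (genotype Hoxd12-/-) and 3 wild-type libraries of embryonic stem cells. All came from C57BL6 mice, were derived from E3.5 embryos and were grown in mES+2i medium. Hoxd12 encodes a homeodomain transcription factor of the HoxD cluster. The means of disruption is not stated in the labels. They do not tie the replicates to separate lines or cultures either, so each p-value measures only how far the libraries differed, and that spread may be technical.

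Glycolysis splits glucose into pyruvate in a preparatory phase, which spends ATP, and a payoff phase, which returns it. Lactate dehydrogenase then reduces pyruvate to lactate, or the pyruvate dehydrogenase complex turns it into acetyl-CoA for the mitochondria. The transcription factor HIF raises most glycolytic genes when oxygen is scarce, because the prolyl hydroxylases that mark its alpha subunit for destruction need oxygen. Mouse embryonic stem cells are known for active glycolysis alongside respiration.

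The libraries held between 5412577 and 6280934 expected counts. Hoxd12 (ENSMUSG00000001823, chr2:74675013-74677705, plus strand, GRCm38) had 0 counts in all 6 libraries, which allows a level of up to 0.478 to 0.554 CPM (3 counts per library; CPM are counts scaled to a common library size), so the genotype labels could not be checked on this gene. All 8 naive stem cell markers passed the count filter. By edgeR, 1 was higher and 1 lower at an adjusted p below 0.05 (12.5% each), and 6 were not called. Over all genes tested, 12.1% were higher and 14.4% lower. Zfp42 was higher (0.29 ± 0.05 on the log2 scale, adjusted p = 1.43e-05) and Nanog lower (-0.39 ± 0.07, adjusted p = 0.00167, both edgeR) in the knockout. Zfp42 lies on chromosome 8 and missed the threshold with the median shift of each chromosome taken out (0.12, adjusted p = 0.056, edgeR). Of 10 fibroblast markers, 4 (Col3a1, Postn, Lum and Dcn) were at 0 in every library, and the 10 summed to between 7.52 and 8.62 CPM in the knockout and between 9.45 and 13.5 CPM in the wild type. The 6 primitive endoderm markers summed to between 6.62 and 11.5 CPM in the knockout and between 3.91 and 6.99 CPM in the wild type. The fibroblast marker Thy1 was lower (-0.97 ± 0.28, adjusted p = 0.00859) and the endoderm marker Gata4 higher (1.10 ± 0.37, adjusted p = 0.0247, both edgeR). Thy1 itself made up 5.67 to 6.29 CPM of the fibroblast sum in the wild type. Tagln, the other tested fibroblast marker, did not pass (0.32 ± 0.34, adjusted p = 0.526, edgeR). The groups of Gata4 overlapped, and no other endoderm marker was tested. Among the untested ones, Gata6 and Sox17 had lower means in the knockout, and Pdgfra, Dab2 and Cubn higher ones. Gata4 did not pass with DESeq2 (adjusted p = 0.0915), nor Thy1 by limma on log2(TPM + 1) (0.0778). In bulk RNA, fewer cells of a type and less RNA per cell cannot be told apart, and the part of these markers in the results on glycolysis was not tested.

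Where the members changed, the changes were mostly small and upward. Of the 34 members tested, 15 were higher and 1 was lower in the knockout at an adjusted p below 0.05 (edgeR quasi-likelihood test, Benjamini-Hochberg adjustment over all 12891 genes tested). The other 18 did not pass. Over all genes tested the test called 12.1% higher and 14.4% lower, 26.5% in either direction. The median log2 fold change of the tested members was 0.10, against 0.02 for all genes tested. The knockout and wild-type libraries did not overlap for 21 of the 34 members, 19 with the knockout above and 2 with it below, while over all genes tested 39.7% did not overlap, 19.6% with the knockout above and 20.0% below. Carbonic anhydrase gene Car9 had between 3 and 10 counts per library and was not tested. Among abundant genes, those with a mean of at least 100 CPM, the background leaned the other way, with 16.0% of 1762 genes higher and 37.9% lower. Of the 17 members in that range, 10 were higher and 1 was lower. Because the members were chosen with earlier results of these data known, their shares describe the list. They are no test of an excess over the background, here or in the parts below.

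**Figure D1:**
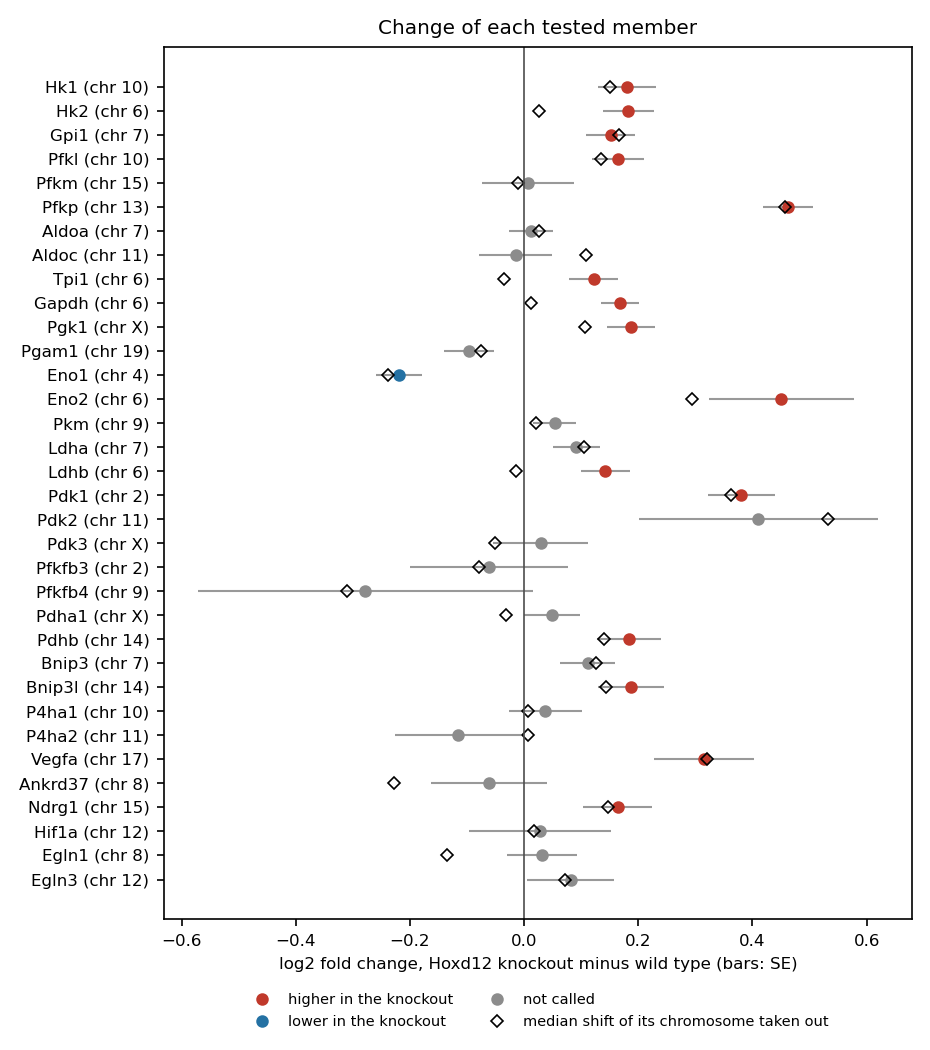
Log2 fold change (x axis, Hoxd12 knockout minus wild type) of each tested member, with its SE as a bar, n = 3 libraries a group. Red points were higher and the blue point lower at an adjusted p below 0.05, grey points were not called, and open diamonds give the change with the median shift of the member's chromosome taken out. Pfkp, Eno2, Pdk2 and Pdk1 lie farthest to the right among the filled points, and the diamonds of Hk2, Tpi1, Gapdh and Ldhb sit near 0.

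The lead change was at phosphofructokinase, which commits sugar to glycolysis and is the main point of control of the pathway. Pfkp, the platelet-type subunit (ENSMUSG00000021196, chr13:6579768-6648777, minus strand), had 399, 386 and 408 CPM in the knockout, against 283, 284.5 and 298.5 CPM in the wild type. Every knockout library was above every wild-type one. Its log2 fold change was 0.46 ± 0.04 (SE), or 37.8% more, with an adjusted p of 8.76e-10 (edgeR). Pfkl, the liver-type subunit (ENSMUSG00000020277, chr10:77986947-78010083, minus strand), had 451, 470.2 and 487 CPM in the knockout, against 409.9, 416 and 430.0 CPM in the wild type. These groups did not overlap either, but the change was smaller, at 0.16 ± 0.05 (adjusted p = 0.00619, edgeR). Pfkm, the muscle-type subunit, had 52.3 to 56.3 CPM in the knockout and 47.9 to 59.5 CPM in the wild type, and its groups overlapped (0.01 ± 0.08, adjusted p = 0.959, edgeR).

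The 2 hexokinases, which trap glucose in the cell by phosphorylating it, were both higher. Hk1 had 135, 132 and 135 CPM in the knockout and 119.6, 119 and 116.5 CPM in the wild type (0.18 ± 0.05, adjusted p = 0.00704, edgeR). Hk2 had 299, 296 and 318 CPM in the knockout and 279, 266 and 260.2 CPM in the wild type (0.18 ± 0.05, adjusted p = 0.00247, edgeR). Gpi1, which turns glucose 6-phosphate into fructose 6-phosphate, had 1586, 1706 and 1607 CPM in the knockout and 1458, 1490 and 1463 CPM in the wild type (0.15 ± 0.04, adjusted p = 0.00827, edgeR). For these genes, too, every knockout library exceeded every wild-type library. The call of Hk1 was lost with DESeq2 (adjusted p = 0.0812) and that of Gpi1 without wild type replicate 3 (adjusted p = 0.0504, edgeR) and with the effective length as an offset (0.0894). The aldolases, which split fructose 1,6-bisphosphate, did not pass: the log2 fold change was 0.01 ± 0.04 for Aldoa and -0.01 ± 0.06 for Aldoc, and both had overlapping groups. Aldoa did pass, at 0.12 once length and GC were corrected for (adjusted p = 0.0246, edgeR) and at 0.13 by limma on log2(TPM + 1) (adjusted p = 0.046). On the latter scale the median of all tested genes was itself 0.10. Triose phosphate isomerase, which interconverts its products, closed the preparatory phase with 1075, 1102 and 1090 CPM of Tpi1 in the knockout and 1008, 1001 and 993 CPM in the wild type. That change of 0.12 ± 0.04 passed (adjusted p = 0.0326, edgeR), but not without knockout replicate 1 or without any 1 of the wild-type replicates, where the adjusted p was between 0.0682 and 0.131, nor with no count filter (0.105).

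**Figure D2:**
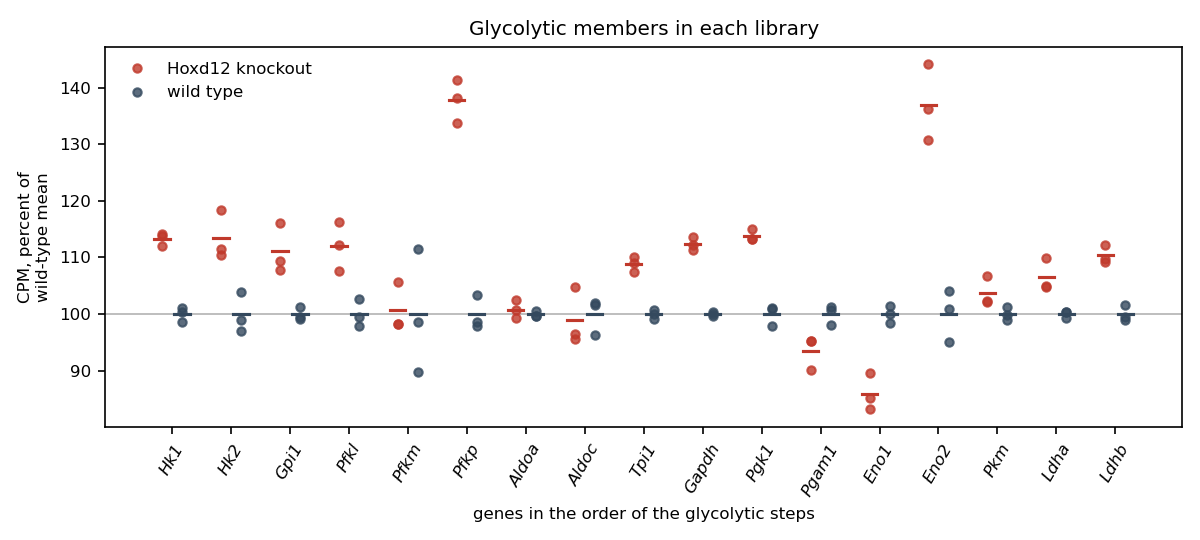
Level of each of the 17 glycolytic and lactate dehydrogenase members in each library (y axis, CPM as a percent of the wild-type mean of that gene), in the order of the steps along the x axis. Points are libraries and short lines are group means, n = 3 a group. Knockout points of Pfkp and Eno2 stand farthest above 100, those of Eno1 farthest below, and those of Pfkm, Aldoa and Aldoc are mixed with the wild type.

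Promoter sequences are shown for Pfkp, Pfkl and Eno1, whose calls kept their direction and passed in every alternative tried, for Pdk1, the kinase that HIF uses to hold pyruvate back from the mitochondria, and for Bnip3, a HIF target that was not called. Each is the 250 bases before the start of the RefSeq transcript (GRCm38.p6), 5′ to 3′ on the strand of the gene. Where a gene had several starts, the one farthest upstream was taken. Capitals mark the core of the hypoxia response element, ACGTG or GCGTG, on either strand, with overlapping matches counted as 1 site.
Pfkp, chr13:6648772-6649021, minus strand: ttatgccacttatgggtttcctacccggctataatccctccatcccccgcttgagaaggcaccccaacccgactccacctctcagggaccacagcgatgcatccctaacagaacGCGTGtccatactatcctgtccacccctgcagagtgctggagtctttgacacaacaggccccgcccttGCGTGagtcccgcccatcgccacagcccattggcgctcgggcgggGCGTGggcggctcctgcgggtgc
Pfkl, chr10:78009808-78010057, minus strand: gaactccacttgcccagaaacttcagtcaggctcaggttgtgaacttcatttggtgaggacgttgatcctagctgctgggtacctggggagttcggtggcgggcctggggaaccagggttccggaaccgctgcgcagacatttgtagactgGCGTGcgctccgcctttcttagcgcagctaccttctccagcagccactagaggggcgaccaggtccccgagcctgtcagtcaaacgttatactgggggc
Eno1, chr4:150236458-150236707, plus strand: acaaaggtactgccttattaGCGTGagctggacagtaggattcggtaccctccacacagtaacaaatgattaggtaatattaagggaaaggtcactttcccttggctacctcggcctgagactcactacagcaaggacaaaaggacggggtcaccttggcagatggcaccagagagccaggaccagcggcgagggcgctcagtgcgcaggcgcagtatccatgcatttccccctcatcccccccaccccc
Pdk1, chr2:71872974-71873223, plus strand: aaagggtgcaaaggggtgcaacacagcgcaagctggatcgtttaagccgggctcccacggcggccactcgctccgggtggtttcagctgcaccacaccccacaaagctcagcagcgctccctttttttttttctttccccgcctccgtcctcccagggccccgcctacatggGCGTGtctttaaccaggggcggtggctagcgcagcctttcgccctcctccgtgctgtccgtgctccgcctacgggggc
Bnip3, chr7:138909507-138909756, minus strand: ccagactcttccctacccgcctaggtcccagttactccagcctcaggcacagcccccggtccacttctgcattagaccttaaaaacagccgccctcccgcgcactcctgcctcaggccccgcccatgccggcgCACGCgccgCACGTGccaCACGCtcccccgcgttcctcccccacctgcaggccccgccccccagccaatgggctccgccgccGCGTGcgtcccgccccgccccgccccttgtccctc
Pfkp holds 3 such sites, which begin 136, 68 and 23 bases before the start. Pfkl holds 1 at 99 bases, Eno1 1 at 230 bases and Pdk1 1 at 78 bases. Bnip3 holds 4, beginning 117, 108, 99 and 35 bases before the start, and the second of them is the palindrome CACGTG, which is also the E-box read by other factors. RefSeq promoters were matched for 33 of the 35 members, and 26 of these (78.8%) held at least 1 site, against 57.8% of the 9608 promoters of tested genes and 38.6% of all 27025 promoters. Among the members, they were found in 8 of 13 promoters of members higher in the knockout (61.5%) and in 16 of 18 promoters of members that were not called (88.9%). In a separate check, the bases after the start read as the sense strand of an annotated transcript for 26 of the 33 promoters. None read as the antisense strand, and the rest could not be placed this way. A match to the element describes these letters and shows no binding.

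In the payoff phase the first enzymes were higher and the enolase step split. Gapdh, which makes the first NADH of the pathway and was the most abundant member, had 13152, 13422 and 13258 CPM in the knockout, against 11853, 11817 and 11783 CPM in the wild type. The groups lay far apart relative to their spread, and the log2 fold change was 0.17 ± 0.03 (adjusted p = 0.000188, edgeR). Pgk1, which makes the first ATP of this phase, had 1467, 1465 and 1489 CPM in the knockout and 1308, 1268 and 1307 CPM in the wild type (0.19 ± 0.04, adjusted p = 0.00104, edgeR). Pgam1, the next enzyme, had 989, 935.5 and 988 CPM in the knockout, below the 1050, 1045 and 1018 CPM of the wild type, and missed the threshold (-0.10 ± 0.04, adjusted p = 0.108, edgeR).

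Eno1, the widely expressed enolase (ENSMUSG00000063524, chr4:150236721-150248879, plus strand), was the member that fell. It had 2503, 2632 and 2446 CPM in the knockout, against 2895, 2982 and 2943 CPM in the wild type, so that no knockout library reached the lowest wild-type one. The log2 fold change was -0.22 ± 0.04 (adjusted p = 9.59e-05, edgeR). Reads of Eno1 are hard to place: 4 near-identical genes, Eno1b and the pseudogene Gm4735 above all, held 48.5% of the summed expected counts of the group in the knockout and 45.1% in the wild type. Summed with these copies, enolase reads came to 4816, 4978 and 4922 CPM in the knockout and 5322, 5408 and 5340 CPM in the wild type. The summed change was still downward but smaller, at -0.13 ± 0.04 (adjusted p = 0.0088, edgeR). Eno2, the enolase known from neurons, went the other way at a far lower level, with 19.2, 21.2 and 20.01 CPM in the knockout and 14.0, 14.8 and 15.3 CPM in the wild type (0.45 ± 0.13, adjusted p = 0.00757, edgeR). It did not pass with DESeq2 (adjusted p = 0.0682) or with the effective length as an offset (0.37, adjusted p = 0.0689).

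Pyruvate kinase and lactate dehydrogenase A ended the pathway with changes that did not pass, although all knockout libraries were above all wild-type ones. Pkm had 3999, 4009 and 4182 CPM in the knockout and 3913, 3963 and 3873 CPM in the wild type (0.05 ± 0.04, adjusted p = 0.326, edgeR). Ldha had 1907, 1912 and 2002 CPM in the knockout and 1827, 1829 and 1808 CPM in the wild type (0.09 ± 0.04, adjusted p = 0.103, edgeR). It passed without knockout replicate 2 (adjusted p = 0.0447) and once length and GC were corrected for (adjusted p = 0.0043, both edgeR), and by limma on log2(TPM + 1), where its change was 0.21 (adjusted p = 0.0338) and the median of all tested genes 0.10. Ldhb, the subunit that favours the return of lactate to pyruvate, had 664, 679 and 660.3 CPM in the knockout and 598, 601.5 and 615 CPM in the wild type. Its change of 0.14 ± 0.04 passed (adjusted p = 0.0141, edgeR), but not without wild type replicate 1 or 2 (adjusted p = 0.057 and 0.0595). Over the 17 genes from hexokinase to lactate dehydrogenase, 10 were higher, 1 was lower and 6 did not pass, with a median log2 fold change of 0.14. These shares, 58.8% higher and 5.88% lower, stand beside 12.1% and 14.4% of all genes tested, and 4 of the 17 were higher with the chromosome medians taken out. Together they took between 32020 and 32641 CPM in the knockout and between 30315 and 30511 CPM in the wild type.

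On the TPM scale, on which counts are set per transcript length so that genes can be compared, Gapdh led in both groups. It averaged 11879 ± 173 TPM in the knockout and 11057 ± 75.0 TPM in the wild type (SD, n = 3 each), more than the next member, Aldoa, at 2253 ± 108 TPM in the knockout and 2052 ± 38.0 TPM in the wild type. Pkm, Eno1, Ldha and Gpi1 followed, with means between 1246 and 1670 TPM in the knockout and between 1063 and 1476 TPM in the wild type. Phosphofructokinase subunits were scarcer, and here the order changed. Pfkp averaged 182 ± 19.9 TPM in the knockout, above Pfkl at 123 ± 10.2 TPM, whereas in the wild type Pfkp averaged 97.4 ± 3.0 TPM and Pfkl 100.5 ± 1.09 TPM. TPM values depend on the effective length that the authors' quantification gave a gene in each library. For Pfkp it averaged 2055 ± 67.6 bases in the knockout and 2557 ± 109 bases in the wild type, and the log2 fold change of its TPM was 0.91, larger than that of its counts.

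Isoenzyme shares of the summed TPM put this within a step. Pfkp made up 56.5%, 55.1% and 56.9% of phosphofructokinase TPM in the knockout libraries, against 46.3%, 45.6% and 43.9% in the wild-type ones. Pfkl made up 37.7%, 38.7% and 37.7% in the knockout, against 46.4%, 46.5% and 47.3% in the wild type. Neither share overlapped between the groups. Each difference reached an exact permutation p of 0.1 (two-sided), the smallest that 3 against 3 libraries can give, and 0.16 after adjustment over the 8 shares tested. This was not particular to phosphofructokinase: the shares of Hk2, Aldoc and Eno2 were also separate between the groups, with the same p by that test. By expected counts with no length term the Pfkp share was 43.2% ± 0.97 in the knockout and 37.9% ± 0.22 in the wild type, 5.25 percentage points apart where the TPM shares differed by 10.9. Eno2 was a minor part of enolase, with 0.663% ± 0.023 in the knockout and 0.44% ± 0.03 in the wild type. Hk2 dominated hexokinase with 90.0% ± 0.96 in the knockout and 91.5% ± 0.27 in the wild type. Ldhb held 35.3% ± 2.95 of lactate dehydrogenase in the knockout and 38.2% ± 0.47 in the wild type. By counts, the differences for Hk2 and Ldhb changed sign. Aldoc was a minor aldolase, with 2.61% ± 0.22 in the knockout and 3.002% ± 0.086 in the wild type. The shares of Pdk1 among the kinases, 55.7% ± 5.24 in the knockout and 51.9% ± 1.63 in the wild type, overlapped between the groups, as did those of Pfkfb3 beside Pfkfb4, 72.4% ± 2.12 in the knockout and 67.9% ± 3.94 in the wild type.

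**Figure D3:**
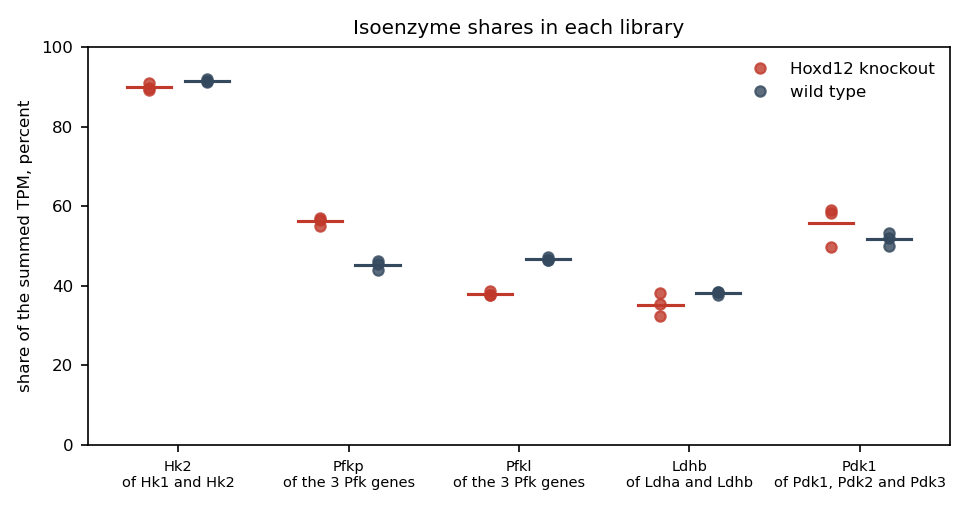
Share of 1 isoenzyme in the summed TPM of its step (y axis, percent) in each library. Points are libraries and lines are group means, n = 3 a group. The Pfkp and Pfkl shares of the 3 Pfk genes separate the groups, with Pfkp at 56.2% in the knockout and 45.3% in the wild type on average. The Hk2 shares also separate them, by less, while the Ldhb and Pdk1 shares overlap.

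Among the members that rose, 5 (Hk2, Tpi1, Gapdh, Eno2 and Ldhb) lie on chromosome 6, and the median of that chromosome was shifted in the same direction. The median log2 fold change of its 600 tested genes was 0.16, and 30.5% of them were called higher and 7.83% lower. Off chromosome 6 the test called 11.2% higher and 14.8% lower. All 5 members there were called higher, with a median of 0.17. When the median shift of each chromosome was taken out as an offset, none of the 5 passed: Gapdh was at 0.01 (adjusted p = 0.843), Hk2 at 0.03 (0.733), Tpi1 at -0.03 (0.61), Ldhb at -0.01 (0.853) and Eno2 at 0.29 (0.0902, all edgeR). Within 5 megabases on each side, the median of the other tested genes was 0.25 around Ldhb and between 0.07 and 0.09 around the other 4. Gapdh, Hk2, Ldhb and Eno2 also had longer mean effective lengths in the knockout. For Gapdh the length averaged 1051 ± 55.0 bases in the knockout and 922 ± 18.8 bases in the wild type. With the effective length as an offset, Gapdh was at -0.00061, Hk2 at -0.02 and Ldhb at -0.07, and none passed. The length of Tpi1 averaged 1463 bases in the knockout and 1462 bases in the wild type, and Tpi1 passed with that offset (0.14, adjusted p = 0.0368, edgeR). By limma on log2(TPM + 1), Hk2 and Ldhb did not pass either (adjusted p = 0.297 and 0.67). In that limma fit Tpi1 (0.24, adjusted p = 0.011), Gapdh (0.10, 0.00973) and Eno2 (0.42, 0.0347) did pass, where the median of all tested genes was 0.10. Whether the chromosome-wide shift or the length estimates set these calls was not tested.

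**Figure D4:**
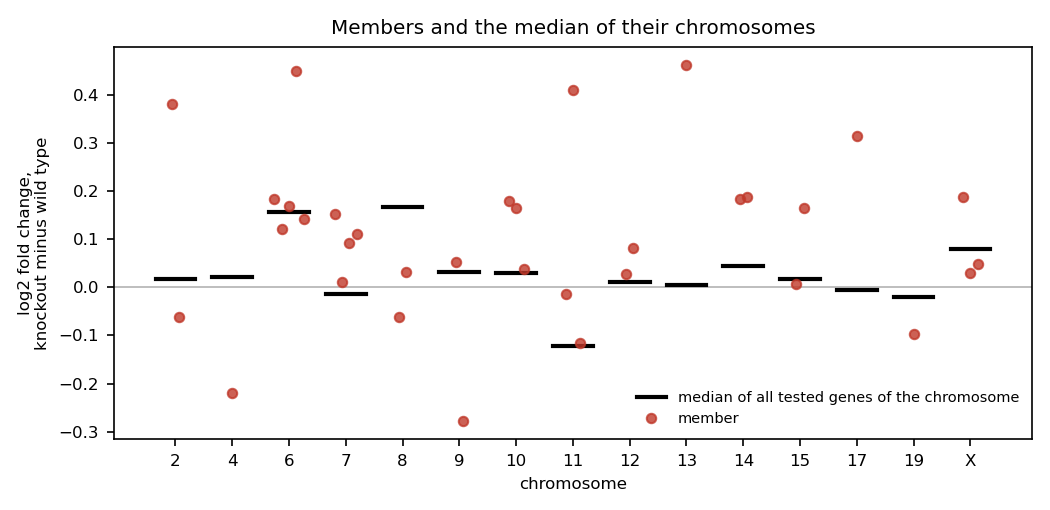
Log2 fold change (y axis, Hoxd12 knockout minus wild type) of each tested member as a point, grouped by its chromosome (x axis), beside the median of all tested genes of that chromosome as a bar. Hk2, Tpi1, Gapdh and Ldhb on chromosome 6 lie close to its median of 0.16, while Pfkp on chromosome 13 and Vegfa on chromosome 17 lie far above medians of 0.01 and -0.01.

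Of the 29 tested members on other chromosomes, 10 were higher and 1 was lower, with a median of 0.05. With the chromosome medians taken out, 6 members of the 34 stayed higher (Hk1, Gpi1, Pfkl, Pfkp, Pdk1 and Vegfa) and Eno1 stayed lower, where the same correction left 9.61% of all genes higher and 14.7% lower. Pgk1 lies on the X chromosome, whose median was 0.08, and had an adjusted p of 0.0614 (edgeR) after that correction. The median of the 34 members fell to 0.03 with it.

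At the branch to the mitochondria, the kinase Pdk1 and the E1 subunit Pdhb were higher. Pdk1, which switches pyruvate dehydrogenase off by phosphorylation (ENSMUSG00000006494, chr2:71873224-71903858, plus strand), had 104, 101 and 104 CPM in the knockout, against 81.6, 75.4 and 80.4 CPM in the wild type. The groups were well apart, with a log2 fold change of 0.38 ± 0.06 (adjusted p = 7.58e-06, edgeR). Its effective length, however, averaged 2524 ± 466 bases in the knockout and 2006 ± 115 bases in the wild type, and with that length as an offset its change was 0.09 (adjusted p = 0.663, edgeR). By limma on log2(TPM + 1) it was 0.18 (adjusted p = 0.403).

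Pdhb had 116, 125 and 129 CPM in the knockout and 113.5, 110.4 and 102 CPM in the wild type (0.18 ± 0.06, adjusted p = 0.014, edgeR). It missed the threshold when knockout replicate 3 was left out (adjusted p = 0.0857), when wild type replicate 3 was (0.118), and with DESeq2 (0.111). Pdha1, its partner in the E1 enzyme, did not pass (0.05 ± 0.05, adjusted p = 0.51, edgeR). Neither did the kinases Pdk2, at 7.04 to 7.70 CPM in the knockout and 5.37 to 5.84 CPM in the wild type (0.41 ± 0.21), and Pdk3 (0.03 ± 0.08). Pfkfb3 and Pfkfb4, which make the fructose 2,6-bisphosphate that activates phosphofructokinase, were at -0.06 ± 0.14 and -0.28 ± 0.29 and did not pass. Of 8 further tested genes of pyruvate import and the pyruvate dehydrogenase complex, none was called by edgeR or DESeq2. Over all genes tested, edgeR called 26.5%. Their log2 fold changes ran from -0.28 for Pdhx to 0.65 for Pdk4, and the median of the 8 was -0.02.

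Among the HIF targets, 3 of 7 tested members were higher and none lower (42.9% higher, against 12.1% of all genes tested). Vegfa, the growth factor that draws blood vessels to tissue short of oxygen, had 41.5, 40.3 and 45.7 CPM in the knockout, against 33.9, 33.9 and 34.9 CPM in the wild type (0.32 ± 0.09, adjusted p = 0.00692, edgeR). Bnip3l, a receptor for the removal of mitochondria, had 101, 106 and 109.8 CPM in the knockout and 94.8, 89.4 and 94.4 CPM in the wild type (0.19 ± 0.06, adjusted p = 0.0144, edgeR). Ndrg1, a gene induced by stress and differentiation, had 94.1, 94.0 and 90.1 CPM in the knockout and 87.2, 80.1 and 81.0 CPM in the wild type (0.16 ± 0.06, adjusted p = 0.0421, edgeR). The groups of all 3 were separate, but each call was lost in some fits, and DESeq2 called none of them (adjusted p = 0.0686 for Vegfa, 0.116 for Bnip3l and 0.22 for Ndrg1). Of 17 alternatives, the call was lost in 4 for Vegfa, 5 for Bnip3l and 12 for Ndrg1. Vegfa also missed the threshold without knockout replicate 3 (adjusted p = 0.0617, edgeR) and by limma on log2(TPM + 1) (0.0507). Bnip3l also missed it without knockout replicate 3 (adjusted p = 0.072) or without wild type replicate 2 (0.0761, both edgeR). So did Bnip3l with the chromosome medians taken out (0.0668) and with length and GC corrected for (0.0516, both edgeR).

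The other targets did not pass. Bnip3, the paralog of Bnip3l, had 167 to 177 CPM in the knockout and 150 to 164 CPM in the wild type (0.11 ± 0.05, adjusted p = 0.0911, edgeR). It passed once length and GC were corrected for, at 0.19 (adjusted p = 0.00435, edgeR), but not with DESeq2 (adjusted p = 0.33). Near-identical copies held 13.4% of the summed expected counts in the knockout and 16.0% in the wild type. With their reads added, Bnip3 was at 0.07 (adjusted p = 0.29, edgeR). The collagen prolyl hydroxylases P4ha1 and P4ha2 were at 0.04 ± 0.06 and -0.12 ± 0.11, and Ankrd37, an ankyrin repeat gene induced by hypoxia, was at -0.06 ± 0.10. The groups of these last 3 overlapped.

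The oxygen-sensing circuit itself showed no called change among the members. Hif1a, the oxygen-regulated alpha subunit, had 18.4, 20.4 and 23.9 CPM in the knockout, against 19.9, 19.1 and 22.7 CPM in the wild type. The groups overlapped throughout, with a log2 fold change of 0.03 ± 0.12 (adjusted p = 0.896, edgeR). The prolyl hydroxylases Egln1 and Egln3, of which Egln3 is itself induced by HIF, were at 0.03 ± 0.06 (adjusted p = 0.756) and 0.08 ± 0.08 (adjusted p = 0.471, both edgeR). HIF activity is set mostly at the protein level, which these data do not measure. Of 13 other genes of HIF subunits and oxygen sensing, all tested, none was higher and 2 were lower (15.4%, close to the 14.4% of all genes tested; among genes with at least 100 CPM, the range of both, 37.9% were lower). Both were subunits of the elongin BC adaptor, through which the von Hippel-Lindau protein recruits its ubiquitin ligase and which also serves other ligases. Elob had 428, 474 and 411 CPM in the knockout and 559.7, 610.1 and 614 CPM in the wild type (-0.44 ± 0.05, adjusted p = 6.42e-08, edgeR). Eloc had 99.1, 106 and 103 CPM in the knockout and 139, 131 and 133 CPM in the wild type (-0.39 ± 0.05, adjusted p = 8.07e-07, edgeR). With length and GC corrected for, Elob was at -0.22 (adjusted p = 0.00153, edgeR). The von Hippel-Lindau gene Vhl was at -0.14 ± 0.10 (adjusted p = 0.329, edgeR).

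A wider list of 30 HIF targets outside the members moved both ways. Of 29 tested, 6 were higher and 5 lower (20.7% and 17.2%, against 12.1% and 14.4% of all genes), with a median of 0.02. Wsb1, a ubiquitin ligase adaptor, had 71.4, 73.4 and 74.3 CPM in the knockout and 48.9, 51.5 and 50.4 CPM in the wild type (0.54 ± 0.07, adjusted p = 3.24e-07, edgeR). Ddit4, an inhibitor of mTORC1 signalling, had 151, 156 and 161.5 CPM in the knockout and 129, 123 and 122 CPM in the wild type (0.32 ± 0.05, adjusted p = 6.95e-06, edgeR). Kdm3a, a histone H3 lysine demethylase on chromosome 6, had 86.8, 89.8 and 96.8 CPM in the knockout and 71.8, 71.5 and 66.5 CPM in the wild type (0.38 ± 0.06, adjusted p = 2.57e-05, edgeR). Kdm3a did not pass with the effective length as an offset (adjusted p = 0.155) or by limma on log2(TPM + 1) (0.122). Zfp395, Bhlhe40 and Gys1 made up the rest of the higher genes. Against these, Ak4, a mitochondrial adenylate kinase, had 86.9, 84.7 and 84.5 CPM in the knockout and 122, 118 and 109 CPM in the wild type (-0.45 ± 0.06, adjusted p = 4.05e-07, edgeR). Loxl2, Higd1a, Jmjd6 and Mif were the other genes called lower. By limma on log2(TPM + 1), 5 of the list were higher and 2 lower. In that limma fit Ak4 (adjusted p = 0.06), Loxl2 (0.1555), Mif (0.285) and Gys1 (0.067) did not pass, while Tmem45a, not called by edgeR, did (0.0336). Gys1 did not pass with DESeq2 either (adjusted p = 0.0857). Once length and GC were corrected for, Mif was at 0.06 (adjusted p = 0.307, edgeR).

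Of 7 tested genes of glucose and lactate transport, 1 was higher, 1 was lower and 5 were not called, 14.3% in each direction and close to the 12.1% and 14.4% of all genes tested. Slc2a3, the high-affinity glucose transporter GLUT3, had 1921, 1926 and 1985 CPM in the knockout, against 1585, 1561 and 1542 CPM in the wild type (0.31 ± 0.04, adjusted p = 4.43e-07, edgeR). It lies on chromosome 6 but, unlike the 5 members there, passed with the chromosome medians taken out, at 0.16 (adjusted p = 0.00446). The lactate exporter Slc16a3 (MCT4), a HIF target, had 289.9, 305 and 289 CPM in the knockout and 356, 359 and 345.5 CPM in the wild type (-0.26 ± 0.04, adjusted p = 2.23e-05, edgeR). Slc16a3 lies on chromosome 11, which had a median of -0.12, and with the medians taken out its change was -0.14 (adjusted p = 0.0172). By limma on log2(TPM + 1) Slc16a3 did not pass (adjusted p = 0.146). Slc2a1, the GLUT1 transporter, was at 0.04 ± 0.04 (adjusted p = 0.568, edgeR). Of the 10 tested glycolytic isoenzymes and regulators outside the members, 1 was higher and 1 lower, no larger a share than over all genes. Pfkfb1 was higher, at 18.3, 22.9 and 19.6 CPM in the knockout and 17.5, 15.3 and 14.1 CPM in the wild type (0.37 ± 0.13, adjusted p = 0.037, edgeR). That call was lost with DESeq2 (adjusted p = 0.174), with the chromosome medians taken out (0.114) and with the effective length as an offset (0.0624). The testis-type lactate dehydrogenase Ldhc was lower, at 3.68, 1.70 and 1.54 CPM in the knockout and 6.46, 4.56 and 4.13 CPM in the wild type (-1.11 ± 0.33, adjusted p = 0.0123, edgeR). Ldhc did not pass with the length offset (adjusted p = 0.0695) or by limma on log2(TPM + 1) (0.0978).

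**Figure D5:**
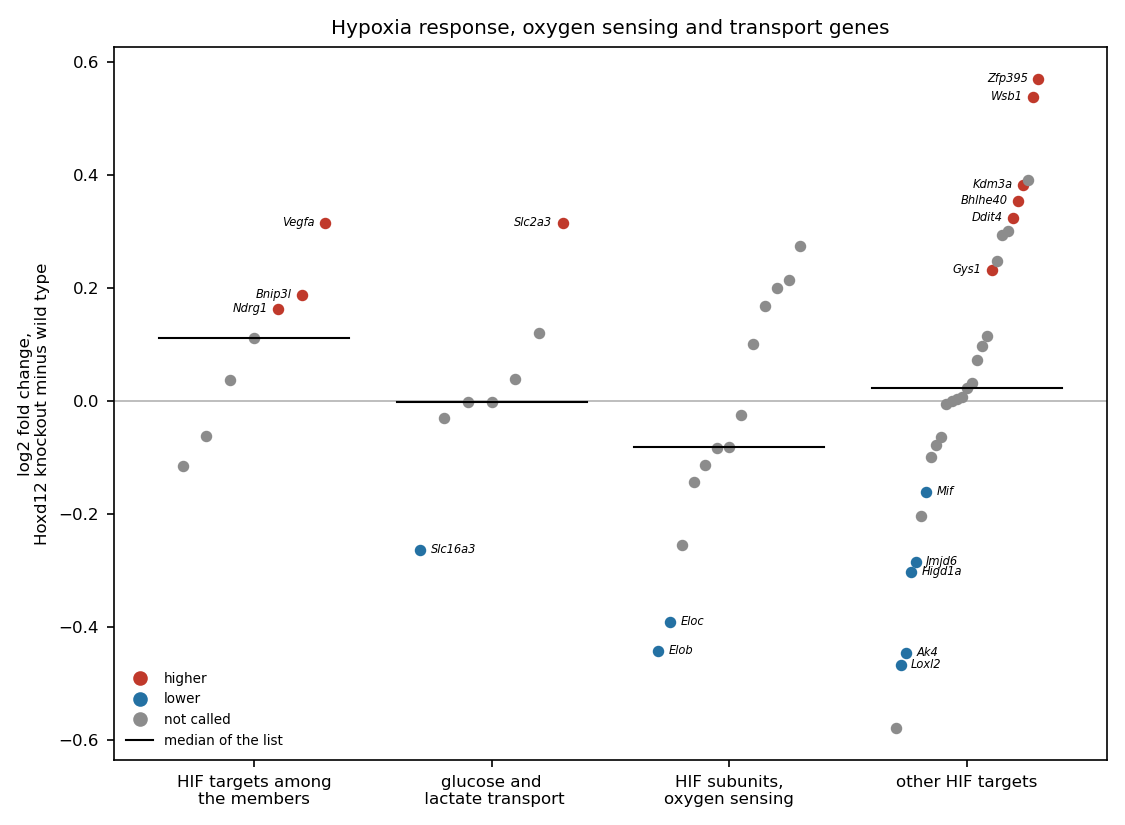
Log2 fold change (y axis, Hoxd12 knockout minus wild type) of the tested HIF targets among the members and of 3 further lists of transport, oxygen-sensing and HIF target genes, ordered by value within each list along the x axis. Red genes were higher and blue genes lower at an adjusted p below 0.05, and lines are the medians of the lists. HIF targets outside the members run from -0.58 to 0.57 with called genes on both sides of 0, and the 2 called oxygen-sensing genes, Elob and Eloc, were lower.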

How the data were processed

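Per the labels' protocols, RNA was harvested with Trizol and made into libraries with a stranded mRNA kit. Bowtie 0.12.2 and builds mm8 and mm10 appear in the submitters' processing notes. Which quantifier and annotation were used, and whether counting used strand, is not given there. Per the file headers, each library's deposited file lists expected counts, TPM, FPKM and effective length for 55450 genes. The deposited expected counts are estimated counts, not normalized for depth; the authors' TPM and FPKM are scaled by length and library size. Without knowledge of strand use, reads of overlapping antisense genes cannot be told apart.

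Symbols, positions and chromosomes came from GENCODE M21, which matched all 55450 identifiers; 1 further Aldoa identifier, with 0 to 2 counts, was left out. Expected counts were rounded and tested with edgeR 4.0.16 in R 4.3.3 (TMM scaling, filterByExpr, robust quasi-likelihood test, group as the only term), with Benjamini-Hochberg adjustment over 12891 genes and a threshold of 0.05. CPM values are on the TMM scale. SE is that of the log2 fold change. Isoenzyme shares were tested by exact permutation over the 6 libraries. Genes with at least 95% identity over 300 bases of transcript counted as copies, unless they overlapped the member on its chromosome (BLAST+ 2.17.0). Pfkm, Pfkp, Pkm, Pdha1, Bnip3 and Ndrg1 each had 1 such overlapping gene, whose reads were not added. The alternatives used DESeq2 1.42.0, limma 3.58.1 on log2(TPM + c) with c = 1 or 0.1, RLE scaling, other count filters, effective length as an offset, a replicate block, and each library left out. Added after seeing the data were 3 more, namely a chromosome median offset, a length and GC correction (loess, span 0.5), and reads of copies added.

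All 35 members are accounted for. Each called member and Hif1a are given by library, and of each further list up to 4 called genes with the smallest p at a mean of at least 1 CPM. The members and lists were chosen with earlier results of these data known. The edgeR step was tested on simulated data of 12677 genes for this comparison: it recovered 6% of genes changed 1.2-fold, 66% at 1.5-fold and 94% at 2-fold and 4-fold, with 9 false calls among 139. A level of 3 counts per library was taken as the floor, which covers counting error only.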

Additional observations from a re-analysis of the deposited data

How the results depend on the processing

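Of the 16 called members, Pfkp, Pfkl and Eno1 kept call and direction in all 17 alternatives. Over the libraries left out in turn, the genes called ranged from 2615 to 3210 (higher 1118 to 1423, lower 1486 to 1787) and the members called from 12 to 16 (higher 11 to 15, lower 1 to 1). DESeq2 called 1988 genes, 701 of them higher, and 10 members, 9 of them higher. The effective length offset left 2468 genes called, 1040 of them higher, and 9 members, 8 of them higher. The chromosome median offset left 3139 genes, 1239 of them higher, and 7 members, 6 of them higher. Limma on log2(TPM + 1) called 1856 genes with 749 lower, and on log2(TPM + 0.1) 1824 with 738 lower; the median of all genes was 0.10 and 0.11 on these scales, against 0.02. The replicate numbers did not pair the libraries (correlations of deviations -0.0047, 0.036 and 0.0075), and not every library correlated best with its own number; with the replicate block 3353 genes and 16 members were called.

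Signs turned as follows, and the cause was not tested. With the effective length offset, Hk2 was at -0.020, Gapdh at -0.00061, Ldhb at -0.071, Pdk3 at -0.22 and Pfkfb3 at 0.072. With the length and GC correction, Aldoc was at 0.0014, P4ha1 at -0.014, Ankrd37 at 0.11 and Hif1a at -0.047. On log2(TPM + 0.1), Pgam1 was at 0.026, Pdk3 at -0.12, Pfkfb3 at 0.16, P4ha2 at 0.054 and Ankrd37 at 0.055. On log2(TPM + 1), Pgam1 was at 0.026, Pdk3 at -0.11, Pfkfb3 at 0.13, P4ha2 at 0.051 and Ankrd37 at 0.053. With the chromosome medians out, Pfkm was at -0.010, Aldoc at 0.11, Tpi1 at -0.035, Ldhb at -0.014, Pdk3 at -0.051, Pdha1 at -0.031, P4ha2 at 0.0070 and Egln1 at -0.13. Over the left-out libraries, Pfkm ranged from -0.066 to 0.091, Aldoc from -0.058 to 0.0091, Pdk3 from -0.011 to 0.073, Pfkfb3 from -0.22 to 0.046, Hif1a from -0.083 to 0.12 and Egln1 from -0.017 to 0.075. By counts, the difference in the Hk2 share was 0.030 and in the Ldhb share 0.68 percentage points. With a library left out, the Pfkp share difference stayed between 10.2 and 11.4, and that of Pfkl between -9.09 and -8.46, points.

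The fold of the tested members ran from 0.825 to 1.38. Members that did not pass cannot be called unchanged, because missing the threshold does not show an absence of change. The simulated test recovered 6% of changes of 1.2-fold and 66% of 1.5-fold. It changed only 50 genes at each fold and gave all genes the same variability. Those rates therefore do not apply to these members, of which Gapdh, for example, was called at 1.12-fold.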

Other observations

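Beside glycolysis, the pentose phosphate pathway branches from glucose 6-phosphate to make NADPH and ribose. Of its 7 genes, all tested, none was higher and 2 were lower in the knockout, with a median log2 fold change of -0.05. That is 28.6% lower, against 14.4% of all genes tested. Of the 2, Taldo1 was in the range of at least 100 CPM, where 37.9% of genes were lower, and G6pdx was below it. Taldo1, the transaldolase that links the branch back to glycolysis, had 405, 425 and 389.6 CPM in the knockout, against 466, 480.1 and 482 CPM in the wild type. The groups did not overlap, and the log2 fold change was -0.23 ± 0.05 (adjusted p = 0.000238, edgeR). Once length and GC were corrected for, it was -0.11 and did not pass (adjusted p = 0.0882, edgeR). G6pdx, the enzyme that commits glucose 6-phosphate to the branch, had 42.7, 42.0 and 46.8 CPM in the knockout and 51.0, 56.4 and 50.5 CPM in the wild type (-0.26 ± 0.08, adjusted p = 0.0139, edgeR). G6pdx did not pass with DESeq2 (adjusted p = 0.0879), with the effective length as an offset (0.0666) or by limma on log2(TPM + 1) (0.424).

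Gluconeogenesis runs the pathway in reverse, and 3 of its 7 listed genes were tested. Pck2, the mitochondrial carboxykinase that makes phosphoenolpyruvate, had 142, 134 and 129.5 CPM in the knockout and 94.8, 96.7 and 98.1 CPM in the wild type. Its log2 fold change was 0.49 ± 0.05 (adjusted p = 2.02e-08, edgeR), and it was 0.44 with the chromosome medians taken out (adjusted p = 1.34e-07). G6pc3 (0.01) and Pcx (-0.08) did not pass.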
